A study of Homo sapiens with 16 samples.

Results

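MED1 binding was compared between HCT116 MED14-AID cells that had received water followed by Nutlin-3a and cells of the same line that had received water alone. HCT116 is a human colorectal carcinoma line with wild-type p53. The members are the peaks of 2 lists, 522 peaks with Nutlin-3a and 463 without, each called from 1 MED1 library. A peak was paired with a peak of the other list when they overlapped by at least 1 bp. A peak with no such partner is called gained when it was in the list with Nutlin-3a and lost when it was in the list without. The 2 lists covered 608 merged regions, of 1584 over all 6 lists of the series.

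Mediator is a large complex that passes signals from transcription factors bound at enhancers to RNA polymerase II at promoters. MED1 is the subunit through which many nuclear receptors and other activators contact it, and MED1 ChIP-seq is widely used to mark active enhancers. MED14 is the scaffold subunit that joins the parts of the complex. The ubiquitin ligase MDM2 holds the transcription factor p53 at low levels, and Nutlin-3a occupies the pocket of MDM2 that grips p53, which then builds up and activates its target genes.

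The series holds 16 samples, which are MED1 libraries and their inputs. Every MED14-AID sample has the genotype OsTir1+/-;Med14-AID+/+, made by CRISPR/Cas9 editing, so both groups compared here carry the auxin-inducible degron on MED14 and the plant protein that acts on it. Both received water for 3 h as the mock for auxin, and 1 of them then received Nutlin-3a for 1 h. The labels name no vehicle for that hour in the cells without Nutlin-3a, give no Nutlin-3a dose and do not say whether the line is 1 clone. Other MED14-AID cells received 500 µM auxin for 3 h, with or without Nutlin-3a for 1 h. Wild-type (WT) HCT116 cells were given either DMSO or Nutlin-3a during 1 h, with 2 MED1 libraries per condition and 1 joint list for both.

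With 1 library on each side, no difference between the conditions could be tested, and every value below compares 2 libraries. Intervals are 95% intervals (Wilson for shares, from order statistics for medians) and cover the counting of peaks only. Strength is the authors' fold enrichment of a peak over background, and −log10 q is the confidence of the call. The median fold was 4.25 over the peaks with Nutlin-3a and 4.38 over those without. The median width was 830.5 bp and 833 bp, and the covered length was 520.1 kb and 466.3 kb. Library depth is unknown, since the lists carry no read totals. A position missing from a list had no called peak there, which is not the same as no MED1.

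Gained peaks made up 163 of the 522 peaks with Nutlin-3a, a share of 31.2% (27.4 to 35.3). Lost peaks made up 104 of the 463 without it, a share of 22.5% (18.9 to 26.5). The peaks listed once were mostly weak. Each list was cut into 4 equal parts by −log10 q. With Nutlin-3a, 56.5% of the part with the lowest −log10 q were gained, then 43.1% and 23.1%, and 2.29% of the part with the highest. Without it, the share lost was 47.4% in the lowest part, then 30.2% and 11.3%, and 0.862% in the highest. All 50 peaks of highest fold in either list overlapped a peak of the other, as did 97 of the 100 highest with Nutlin-3a and 98 of the 100 highest without. Among peaks with a fold of at least 5, 12 of 167 were gained and 12 of 163 were lost.

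The medians of gained and lost peaks lay close together, and both lay below those of peaks listed in both conditions. The median fold was 3.66 for gained and 3.86 for lost peaks. Peaks listed in both conditions had a median fold of 4.67 with Nutlin-3a and 4.69 without. The median −log10 q was 6.64 for gained and 5.73 for lost peaks, against 13.4 and 11.4 for peaks listed in both. Peaks listed once were also narrower, with a median width of 623 bp for gained and 569.5 bp for lost peaks, against 944 bp and 909 bp.

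**Figure D1:**
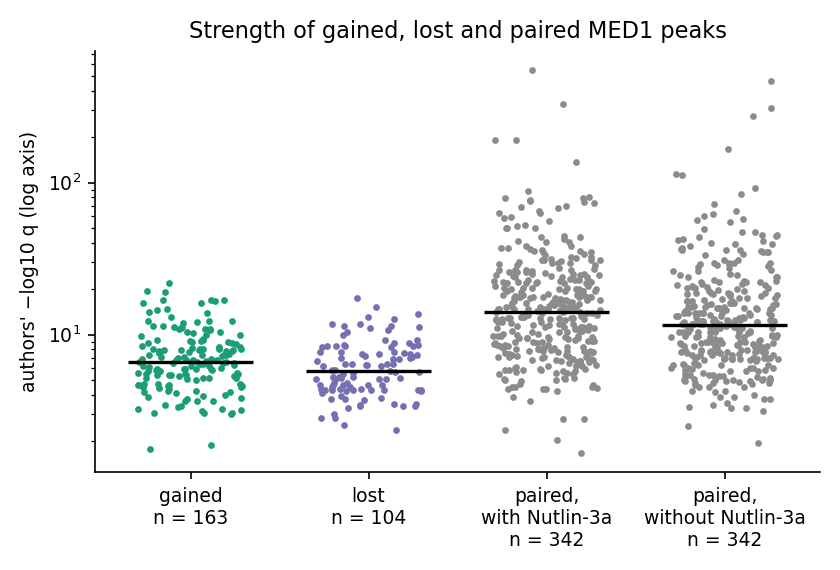
Authors' −log10 q (log axis) of the 163 gained, 104 lost and 342 paired peaks of the 2 MED14-AID lists, with 1 point per peak and a bar at each median. Gained and lost peaks have medians of 6.64 and 5.73 and sit low in the range, while the paired peaks have medians of 14.1 with Nutlin-3a and 11.5 without and hold the highest values.

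The 8 gained peaks of highest fold lay on 7 chromosomes. The strongest, at chr4:31086230-31087351 (hg19, as all positions here), reached 6.22-fold. WT cells had it too, with a fold of 4.26 with DMSO and 3.82 with Nutlin-3a, so a peak gained in 1 line was called in both conditions of the other. The next, at chr4:169019401-169020020, had a fold of 6.03 and was listed in WT cells at 3.33 with DMSO and 5.02 with Nutlin-3a. The peak at chr11:2152948-2153814 had a fold of 6.03, and in WT cells only the Nutlin-3a list held it, at 6.41. A neighbouring gained peak, at chr11:2150636-2151285, had the same WT fold with Nutlin-3a and was listed with DMSO too, at 2.78. The peaks at chr1:95087733-95089047 (fold 5.92), chr2:226989185-226989823 (5.47) and chr3:139029308-139030230 (5.41) were in both WT lists. The peak at chr20:30291937-30292980 had a fold of 5.31 and was in WT cells listed with Nutlin-3a alone, at 4.24. The peak at chr12:27767992-27769123, with a fold of 5.27, was in neither WT list.

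Lost peaks reached the same folds. The strongest, at chr1:24648330-24649019, had a fold of 6.37 without Nutlin-3a and was listed in WT cells at 3.20 with DMSO and 3.93 with Nutlin-3a. The peak at chr21:35747426-35747959 had a fold of 6.06, and was listed in WT cells at 5.67 and 4.52. The peak at chr1:1357796-1358484 had a fold of 5.75 and was in WT cells listed with DMSO alone, at 3.04, which is the same direction in both lines. By listing alone the reverse held at chr18:3451370-3452351, lost here with a fold of 5.22 and held in WT cells only by the Nutlin-3a list, at 3.67. Neighbouring lost peaks, at chr18:3450354-3451306 and chr18:3449563-3450081, had the same WT fold with Nutlin-3a and were listed with DMSO too, at 3.83. The locus was thus called in both WT lists. The remaining 4 of the 8 lost peaks of highest fold were in both WT lists. They were chr17:27169627-27170139 (fold 5.51), chr1:24306556-24307275 (5.42), chr12:69753284-69753863 (5.28) and chr17:39807713-39808406 (5.18).

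Most peaks listed once had no peak of the other list within 1 kb. The smallest gap to such a peak was 50 bp for gained and for lost peaks, while the smallest overlap that made a pair was 49 bp. Within 1 kb lay a peak of the other list for 19 gained peaks (11.7%) and 17 lost peaks (16.3%). The median gap was 33.7 kb for gained and 10.8 kb for lost peaks, over those on chromosomes with peaks in both lists. Chromosome Y held 3 gained peaks and no peak without Nutlin-3a, while its WT counts were the reverse, 3 after DMSO against 0 after Nutlin-3a. The 3 gained peaks had low folds, of 2.09, 2.07 and 1.67, and the first of them was in the WT list with DMSO only.

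Peaks often lay in clusters, and some clusters kept a call in both conditions while single peaks in them did not. Joining peaks by the stitching distance in common use for super-enhancers gave 375 regions. Of these, 237 held peaks of both lists, 90 held peaks with Nutlin-3a only and 48 held peaks without it only. Regions holding both lists contained 64 of the 163 gained and 53 of the 104 lost peaks. Of the regions seen in 1 list, 9 with Nutlin-3a and 2 without held 2 or more peaks.

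The largest joined region was chr6:159118377-159160165, with 10 peaks in each list over 41.8 kb. It held 1 gained and no lost peak, and its peaks covered 14.1 kb with Nutlin-3a and 13.02 kb without. The highest fold in it was 14.3 with Nutlin-3a and 14.7 without. Its peaks differed in both directions. At the left end the fold was 5.94 with Nutlin-3a and 3.87 without, at chr6:159118377-159120447. That peak with Nutlin-3a also overlapped another peak without it, at chr6:159119895-159120441, with a fold of 3.27. Further along, at chr6:159124936-159125944, the fold was 4.93 with Nutlin-3a and 8.51 without, and the peak was 1009 bp wide against 2569 bp. That 2569 bp peak also overlapped another peak with Nutlin-3a, at chr6:159126774-159127597. The gained peak, at chr6:159142788-159143395, had a fold of 3.33.

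**Figure D2:**
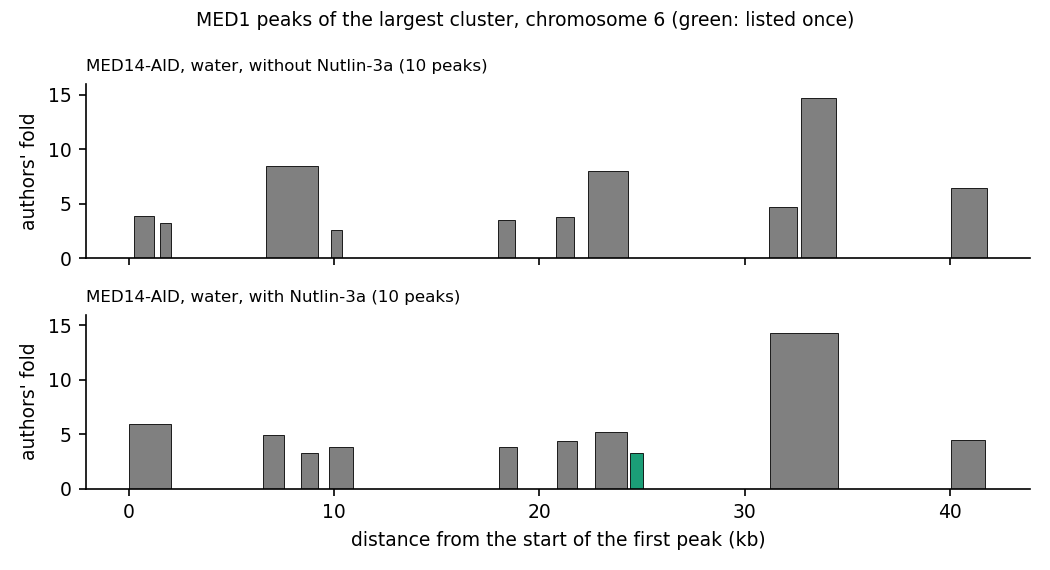
Authors' fold of each peak in the largest joined region on chromosome 6, by distance from the start of its first peak in kb, with bars as wide as the peaks, a panel for each list and the gained peak in green. The strongest peak had a fold of 14.3 with Nutlin-3a and 14.7 without, while weaker neighbours differed in both directions.

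Paired peaks had close median folds in both lists. Keeping the longest overlap of each peak gave 342 pairs. Their median fold was 4.79 with Nutlin-3a and 4.73 without, and the median ratio of the folds was 1.01 (0.977 to 1.06). The fold was higher with Nutlin-3a in 177 pairs and lower in 165. It was at least 1.5 times higher in 20 pairs (5.85%) and at least 1.5 times lower in 23 (6.73%). A ratio of at least 2 was found in 3 pairs, and none was lower by that much. The log2 ratio ran from −0.91 to 1.22, with quartiles of −0.27 and 0.29.

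The −log10 q of the calls lay further apart between the lists than the fold, whose median ratio had an interval that includes 1. The median −log10 q of the pairs was 14.1 with Nutlin-3a and 11.5 without, and the median log2 ratio was 0.30 (0.20 to 0.39). By a ratio of 1.5 in −log10 q, 105 pairs were higher with Nutlin-3a and 48 were lower. A q-value depends on the number of reads as well as on the enrichment, and the part of read number was not tested.

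**Figure D3:**
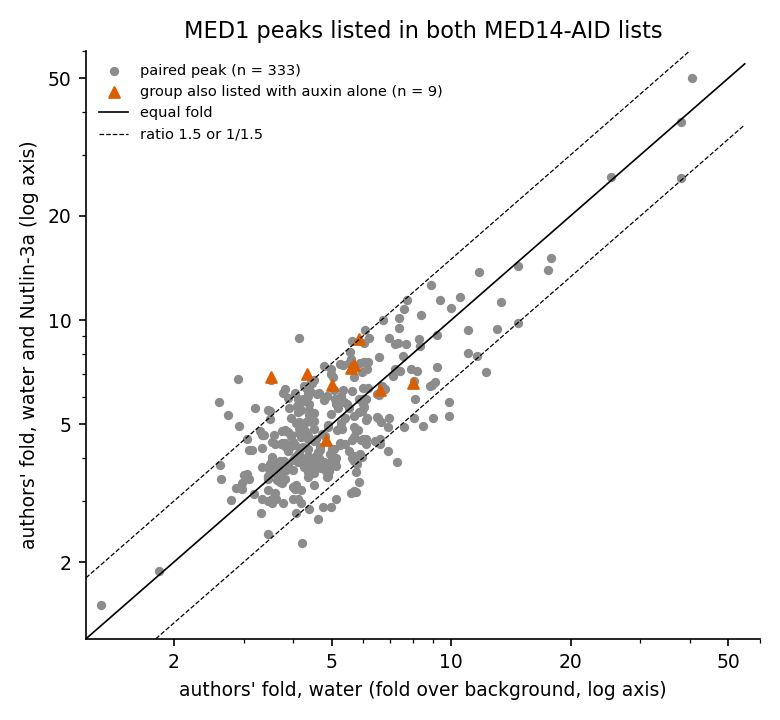
Authors' fold with Nutlin-3a against the fold without it at the 342 paired peaks, on log axes, with lines at equal fold and at ratios of 1.5. Points lie on both sides of the line of equal fold, 20 of them past 1.5 above it and 23 past 1.5 below it, and the triangles are 9 pairs of a group of 12 regions that was also listed in cells with auxin and no Nutlin-3a.

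The strongest positions were shared. The highest fold in both lists was at chr2:3522321-3523380, 49.9 with Nutlin-3a and 40.5 without. At chr19:6199194-6200076 the folds were 37.3 and 37.9, and at chr4:3748039-3748832 they were 25.9 and 25.3. The position chr12:13080177-13080963 had rank 2 without Nutlin-3a, at 38.1, and rank 4 with it, at 25.8. That is the widest gap among these leading peaks, and it falls short of the ratio of 1.5. Over the 6 positions of highest fold in each list, summits lay between 10 and 144 bp apart.

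Among pairs whose −log10 q reached 5 in each list, the highest ratio was at chr6:159273758-159275603. There the fold was 8.89 with Nutlin-3a and 4.14 without, and the peak was 1846 bp wide against 826 bp. At chr14:94844772-94845401 the folds were 6.84 and 3.51, and at chr9:21576202-21577032 they were 6.70 and 3.52. The next were chr2:8773645-8774638 (5.56 and 3.20), chr6:145218626-145219909 (6.31 and 3.82) and chr3:111566142-111567606 (6.17 and 3.77). None of these 6 positions was among the leading peaks of either list.

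The lowest ratio was at chr20:30191856-30193669, where the fold was 3.88 with Nutlin-3a and 7.30 without, and the width 1814 bp against 3034 bp. At chr11:34620716-34622650 the folds were 5.29 and 9.88. At chr12:89325152-89325692 they were 3.18 and 5.76. The others were at chr8:130697558-130698648 (3.16 and 5.59), at chr14:97572919-97573758 (3.21 and 5.68) and at chr13:113526886-113527918 (7.07 and 12.3). All 23 pairs past 1.5 in this direction were listed in both WT lists, as were 16 of the 20 in the other direction. Of all 342 pairs, 304 (88.9%) were in both WT lists.

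The typical width ratio was close to 1. The median ratio of widths was 1.04 (0.996 to 1.07), with 188 pairs wider with Nutlin-3a, 153 narrower and 1 equal. Past a ratio of 1.5, 41 pairs were wider and 35 narrower. Of these, 9 and 10 were pairs in which a peak overlapped more than 1 peak of the other list. Width went with strength in the pairs past the fold ratio of 1.5, since 15 of the 20 higher pairs were wider and 17 of the 23 lower pairs were narrower. Across the 342 pairs the log2 ratios of fold and width had a Pearson r of 0.34 and a Spearman rho of 0.30. Both values of a pair come from the same 2 libraries, so this is a description.

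The largest widening was at chr2:8818072-8819537, 1466 bp with Nutlin-3a and 556 bp without. At chr4:11633708-11636018 the widths were 2311 bp and 891 bp, and at chr13:111616641-111618293 they were 1653 bp and 663 bp. In the chromosome 2 and chromosome 4 pairs a peak overlapped several peaks of the other list. The largest narrowing was at chr17:39811347-39811852, 506 bp with Nutlin-3a and 1475 bp without. It was followed by chr2:227517014-227517703, at 690 bp and 1831 bp, and by the peak of the chromosome 6 region at 1009 bp and 2569 bp. In each of these narrowed pairs a peak overlapped several peaks of the other list, so a call divided in another way enters the width ratio. Pairs without several overlaps had log2 ratios of width from −1.18 to 1.32.

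Summits of paired peaks were a median of 100.5 bp apart (86 to 118). Of the 342 pairs, 98 had summits within 50 bp, 171 within 100 bp and 27 more than 500 bp apart. Pairs whose −log10 q reached 20 in each list had a median distance of 85.5 bp (n = 64), and pairs under 10 in both had 158 bp (n = 82). The longest distances were 1167 bp at chr4:11633708-11636018, 951 bp at chr14:69014152-69015311 and 929 bp at chr5:82270981-82273094.

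The WT lists come from other libraries and show whether the same positions were called in unedited cells. The WT list with Nutlin-3a is the longer, with 1254 peaks over 1363 kb against 1106 peaks over 1144.5 kb with DMSO. Of the 163 gained peaks, 82 were in both WT lists, 31 in the WT list with Nutlin-3a only, 5 in the one with DMSO only and 45 in neither. Of the 104 lost peaks, the counts were 69, 13, 4 and 18. Gained peaks in neither list included calls of low fold, such as chr10:42356353-42357139 (1.67), chr1:121484128-121485111 (1.45) and chr18:108426-109067 (1.32). Lost peaks in neither list included chr21:10775193-10775692 (2.49). The lowest fold was 1.32 over all gained and 1.93 over all lost peaks. With −log10 q of at least 5, 75% of 124 gained and 86.2% of 65 lost peaks were in a WT list. In any WT list were 72.4% of gained peaks (65.1 to 78.7), 82.7% of lost peaks (74.3 to 88.8) and 95.8% of those listed in both conditions (93.2 to 97.5). Both WT lists held 50.3% of the gained peaks (42.7 to 57.9) and 66.3% of the lost peaks (56.8 to 74.7), against 88.9% of the peaks with Nutlin-3a listed in both conditions (85.2 to 91.7). A listing in WT Nutlin-3a only was found for 19.02% of gained peaks (13.7 to 25.7), 13 of the 104 lost peaks (7.45% to 20.2%) and 5.85% of the peaks listed in both (3.86 to 8.78). The intervals of gained and lost peaks overlap here. In each class more peaks were in WT Nutlin-3a only than in WT DMSO only, also among peaks with Nutlin-3a listed in both conditions (21 against 4).

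**Figure D4:**
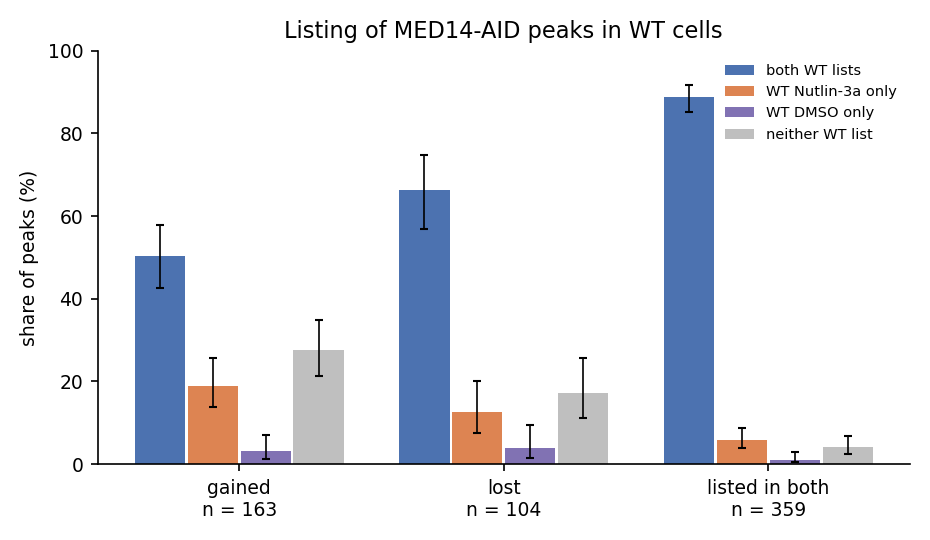
Share of gained peaks, lost peaks and peaks listed in both MED14-AID conditions that overlap a peak of both WT lists, 1 WT list or neither, with Wilson 95% intervals. The bar for both WT lists is highest in each class, at 50.3% for gained peaks, 66.3% for lost peaks and 88.9% for peaks listed in both conditions.

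Where a gained peak was in both WT lists, the WT fold was mostly higher with Nutlin-3a, as it was for the other classes. The WT fold is that of the WT peak with the longest overlap, so neighbouring positions can share a WT peak. For example, chr17:57831937-57832923 and chr17:57833368-57833974 both had WT folds of 3.76 with DMSO and 4.67 with Nutlin-3a. The 2 WT peaks at a position can also differ in extent, with a median width of 760.5 bp for DMSO and 818 bp for Nutlin-3a over each list. The median log2 ratio in WT was 0.30 (0.15 to 0.37) at the 82 gained positions, and above 0 at 67 of them (81.7%). At the 69 lost positions it was 0.13 (−0.02 to 0.27), and above 0 at 42 (60.9%). At the peaks with Nutlin-3a listed in both conditions it was 0.17 (0.12 to 0.21), and above 0 at 222 of 319 (69.6%). Lost positions too had a WT median above 0. The intervals of gained and lost positions overlap.

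The 8 gained peaks of highest fold that WT cells had in the Nutlin-3a list only began with the chromosome 11 and chromosome 20 peaks given above. The gained neighbour of the chromosome 11 peak was in both WT lists. Next came chr4:155490248-155490838, at 5.07 with Nutlin-3a in MED14-AID cells and 3.70 with it in WT cells. A peak without Nutlin-3a lay 384 bp from it in the MED14-AID list. The others were chr12:76060425-76061232 (4.98), chr6:41710098-41710638 (4.62), chr4:74283466-74283965 (4.56), chr1:161192117-161192646 (4.55) and chr10:73840111-73841001 (4.50).

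At 303 pairs a fold could be read in all 4 lists without auxin. In MED14-AID cells and in WT cells the fold was higher with Nutlin-3a at 116 of them and lower at 48. It was higher in MED14-AID cells and lower in WT cells at 43, and the reverse at 96. In WT cells 212 of the 303 were higher with Nutlin-3a. A ratio of at least 1.5 was found in WT cells at 43 positions (14.2%), and at most 1/1.5 at 2 (0.66%). The median log2 ratio over these positions was 0.18 in WT cells (0.14 to 0.22), while that over the 342 MED14-AID pairs was 0.01, and the difference between the lines was not tested.

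**Figure D5:**
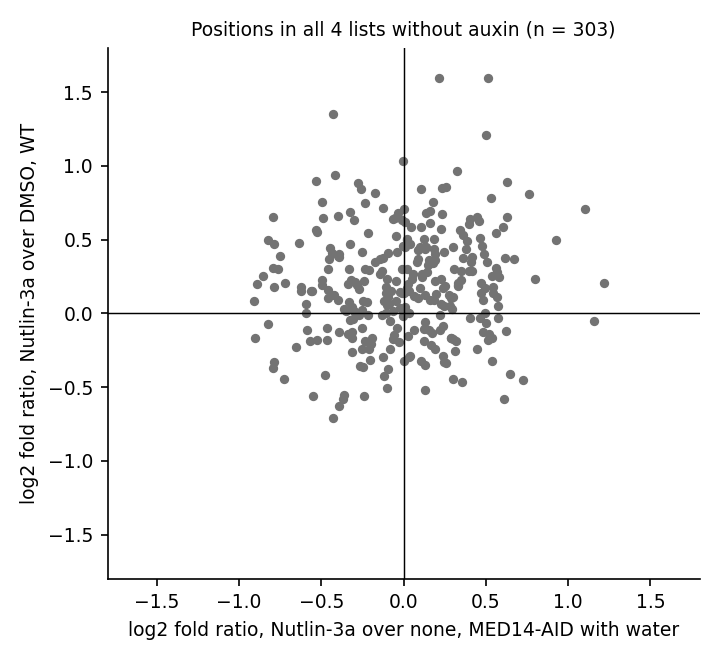
Log2 ratio of the authors' fold with over without Nutlin-3a in WT cells against the same ratio in MED14-AID cells, at the 303 positions in all 4 lists. The points form a cloud with a Pearson r of 0.11, centred near 0 for MED14-AID cells and above 0 for WT cells.

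Across the 303 positions the ratios of the 2 lines had a Pearson r of 0.11 and a Spearman rho of 0.099. The MED14-AID and WT ratios come from separate libraries, and positions within a library share its depth. Neighbouring positions can also share a WT peak. Of the 15 positions that were 1.5 times higher in MED14-AID cells and had a WT value, 10 were higher in WT cells. Of the 23 that were 1.5 times lower, 16 were higher in WT cells. A ratio of at least 1.5 in both lines was found at 4 positions, and of at most 1/1.5 in both at none.

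One group of 12 regions, picked out after its values were seen, was in the WT list with Nutlin-3a but not in that with DMSO, and in auxin-treated MED14-AID cells without Nutlin-3a but not with it. It held 12 of the 522 peaks with Nutlin-3a and 9 of the 463 without. Of the gained peaks, 3 were in the group. They were the peaks at chr4:155490248-155490838, chr4:74283466-74283965 and chr1:161192117-161192646. Its 9 pairs had a higher fold with Nutlin-3a in 6, and 3 of these passed the ratio of 1.5. At chr14:94848999-94849786 the fold was 8.83 with Nutlin-3a and 5.86 without, and at chr11:116706552-116707448 it was 7.01 and 4.33. Without the group, 17 of 333 pairs were at least 1.5 times higher.

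The lists after MED14 depletion are short, with 53 peaks for auxin alone and 66 for auxin and Nutlin-3a, so few peaks of any class can be in them. At least 1 of them held 8 of the 163 gained peaks, 10 of the 104 lost peaks and 54 of the 359 listed in both conditions. Of the gained peaks, 6 were called with auxin alone, 2 with auxin plus Nutlin-3a and none in both. Of the lost peaks, 2 were called with the first only, 7 with the second only and 1 with both. For the 359 peaks listed in both conditions these counts were 9, 13 and 32.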

How the data were processed

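MED1 ChIP-seq was made from HCT116 cells, and the deposited files are 6 lists of peaks. The submitters' processing notes name Bowtie 0.12.9, MACS2 2.1.2 and the build hg19, without settings. Each MED14-AID list belongs to 1 MED1 library, and each WT list to both libraries of its condition, per the labels. The fold of a peak is a linear ratio over background from the authors' caller. The deposited −log10 values used are those of the caller's q-value, and those of its p-value were not used. The deposited score was not used. The authors' summit is an offset from the peak's start. The lists hold no read totals, so no depth can be given and weak calls are the least reliable.

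Peaks were paired by an overlap of at least 1 bp with Python 3.11.15, numpy 2.4.6, pandas 2.3.3 and scipy 1.17.1, and drawn with matplotlib 3.10.9. The overlap code was tested on copies of real peaks with Nutlin-3a, moved by a short distance or far away. No calls were merged or split for that test. In addition, 60 overlap counts were checked with bedtools 2.31.1, of which 0 differed. Where a peak overlapped several, the longest overlap that was best for both peaks made the pair. The WT fold of a peak was that of the WT peak with the longest overlap. For a pair, the DMSO fold was read at the peak without Nutlin-3a and the WT Nutlin-3a fold at the peak with it. Samples were grouped by the labels. No test was made, with 1 library per MED14-AID condition. Other overlap rules, limits on −log10 q, equal list lengths, joined regions and fold limits were tried. The positions named are those of highest fold, largest ratio, width change or summit distance, in numbers set by rule, and the group of 12 regions is outside that rule. The members and lists were chosen with earlier results of these data known. Positions carry no gene names, and promoter sequences and p53 motifs were not used here, because the gene tables used were of another build than the peaks.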

Additional observations from a re-analysis of the deposited data

Results flagged for a closer look

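At 1 position the fold passed 1.5 in opposite directions in the 2 lines. At chr13:113526886-113527918 the fold was 7.07 with Nutlin-3a and 12.3 without in MED14-AID cells, and 7.44 with Nutlin-3a and 4.72 with DMSO in WT cells. Among peaks listed once, 6 gained positions were called after auxin alone but not after auxin plus Nutlin-3a. Of these, 3 belong to the group of 12 regions, which was picked out for this auxin pattern, and 2 are weak peaks on chromosome 21 with folds of 2.29 and 2.08. Likewise 7 lost positions were called after auxin plus Nutlin-3a but not after auxin alone. The other way round were 2 gained and 2 lost positions. Of the 359 peaks listed in both conditions, 9 were called only after auxin alone and 13 only after auxin plus Nutlin-3a. The list with auxin plus Nutlin-3a is the longer, with 66 peaks against 53. For the flagged positions the direction was opposite in the 2 groups, and the difference was not tested.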

How the results depend on the processing

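No paired analysis was possible because each MED14-AID condition has 1 MED1 library and the WT lists are joint. Of 50 alternatives, 32 gave values close to those reported and 18 moved them. A share or median was called close when it lay inside the reported interval. A count was called close within 1.5 times the reported count, without regard to the number of pairs. Some alternatives change a count by construction, such as another ratio limit or fewer pairs. The cause of the other moves was not tested. With a reciprocal overlap of 50%, the gained share was 43.3% and the lost share 36.1%, and 55.2% of gained and 59.6% of lost peaks were in a WT list. With gaps up to 1 kb counted as paired, the lost share was 18.8%. With −log10 q limited to 10 or more in each list, the gained share was 36.0% and the median summit distance was 82 bp. That limit left 163 of the 342 pairs, of which 6 were higher and 9 lower by 1.5. With −log10 q limited in the first list only, 12.0% were gained and 5.99% lost. A ratio of at least 2 left 3 higher and 0 lower pairs, against 20 and 23 at 1.5, and a limit midway between 1 and 1.5 gave 76 and 71. With −log10 q in place of fold, the median log2 ratio was 0.30, with 105 higher and 48 lower pairs. Leaving out the group of 12 positions, an alternative added after seeing the data, gave 31.4% gained, 22.9% lost, 17 higher and 23 lower pairs. The unknown depth limits every count of gained and lost peaks, most of all among weak peaks.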
